A study of Mus musculus with 8 samples.

Results

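The B cell antigen receptor complex and its coreceptors were followed through 5 genes: Cd79a, Cd79b, Ms4a1, Cr2 and Cd81. They were chosen by name, with earlier results of these data known. All 5 were found once each among the 56748 genes of the count table. Each passed the filter on low counts, which left 14723 genes for testing. The libraries are poly(A) RNA of peripheral blood mononuclear cells, the lymphocytes and monocytes that a density gradient separates from blood taken by cardiac puncture. Male wild-type C57BL/6J mice, 8 weeks old, were gavaged daily for 1 month with saline (5 libraries) or with 200 mg per kg of fucoidan from Undaria pinnatifida (3 libraries), on the same basal diet. Fucoidans are sulphated sugar polymers, rich in fucose, that brown seaweeds make. The treatment text of all 8 libraries speaks of saline, so the groups follow the titles, with which the treatment characteristics go.

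A B cell detects antigen with a membrane immunoglobulin that cannot signal on its own. Cd79a (Ig-alpha) and Cd79b (Ig-beta) form the heterodimer that carries the receptor to the surface and passes the signal on through tyrosine motifs in their cytoplasmic tails. The complement receptor encoded by Cr2 binds antigen tagged with fragments of C3 and, in a complex with the tetraspanin Cd81, lowers the threshold of that signal. Ms4a1 encodes CD20, a membrane protein of mature B cells that lies near the receptor. The pair of Cd79 genes, Ms4a1 and Cr2 are largely restricted to B cells among blood mononuclear cells, whereas Cd81 is made by T cells, natural killer cells, monocytes and many other cells as well. Mouse Cr2 encodes both CD21 and CD35 by alternative splicing, and the gene count does not separate them.

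The genes lie, in GRCm39 coordinates of the count table, as follows. Cd79a (ENSMUSG00000003379) is on the plus strand of chromosome 7 at 24596806 to 24601622, and Cd81 (ENSMUSG00000037706) is on the same chromosome and strand at 142606476 to 142621671. Cd79b (ENSMUSG00000040592) is on the minus strand of chromosome 11 at 106202167 to 106205588, Ms4a1 (ENSMUSG00000024673) on the minus strand of chromosome 19 at 11227039 to 11243605, and Cr2 (ENSMUSG00000026616) on the minus strand of chromosome 1 at 194819119 to 194859024. Genes on the opposite strand overlap Cd81 and Ms4a1. R74862 at Cd81 was assigned at most 35 counts in a library, against at least 1269 for Cd81, and 4930526L06Rik at Ms4a1 was assigned 0. The strand setting of the counting is unknown, so these counts do not show how many antisense reads the genes received.

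RefSeq promoter sequences (GRCm38.p6, an earlier build than that of the counts) were at hand for 3 of the 5 genes. They are shown as description, because they were the ones at hand. In the counts Cd79a and Cr2 fell and Cd81 did not, and any link of that to the sequences was not tested. Each run gives the 250 bases before the annotated start, 5′ to 3′ on the gene's strand. Capitals mark matches, on either strand, to the EBF1 consensus core CCCNNGGG, the Cd79a EBF1 site CAAGGGAAT, the octamer ATGCAAAT, the GC box GGGCGG, the Ets factor core GAGGAA, the E box of E2A written CAGGTG and the TATA box written TATAAA. Cd79a lies at chr7:24897247-24897496 on the plus strand, Cr2 at chr1:195176720-195176969 on the minus strand, and Cd81 at chr7:143052500-143052749 on the plus strand.
Cd79a: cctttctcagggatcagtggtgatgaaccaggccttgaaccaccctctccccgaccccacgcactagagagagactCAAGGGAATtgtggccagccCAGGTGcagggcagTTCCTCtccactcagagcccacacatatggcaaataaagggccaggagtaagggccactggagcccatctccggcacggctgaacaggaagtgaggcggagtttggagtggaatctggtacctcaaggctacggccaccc
Cr2: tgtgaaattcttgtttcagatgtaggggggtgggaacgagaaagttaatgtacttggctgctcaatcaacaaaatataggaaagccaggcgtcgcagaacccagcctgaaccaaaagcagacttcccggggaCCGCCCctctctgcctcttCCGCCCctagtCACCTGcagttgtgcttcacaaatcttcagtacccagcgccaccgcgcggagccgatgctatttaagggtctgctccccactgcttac
Cd81: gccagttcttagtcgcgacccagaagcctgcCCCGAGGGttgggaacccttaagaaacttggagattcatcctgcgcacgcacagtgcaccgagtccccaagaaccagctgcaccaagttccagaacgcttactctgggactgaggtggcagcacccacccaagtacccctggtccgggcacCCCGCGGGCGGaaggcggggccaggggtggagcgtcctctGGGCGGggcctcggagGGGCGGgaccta

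The Cd79a window held 3 matches. CAAGGGAAT, long known in this promoter as the site of the B cell factor EBF1 and searched for that reason, begins at position -174 from the start, with CAGGTG at -154 and GAGGAA, on the opposite strand, at -140. The Cr2 window held GC boxes at -118 and -99 and an E box at -88, all on the opposite strand. The Cd81 window held 3 GC boxes, at -63, -28 and -12, and 2 matches to the EBF1 core, at -219 and -68, of which the nearer overlaps a GC box. It was also the richest in G and C, at 65.6% against 58.8% for Cd79a and 53.6% for Cr2, with a median of 52.4% over 32851 such windows. CAAGGGAAT occurs in 0.225% of all windows, the EBF1 core in 11.8%, the GC box in 32.7%, GAGGAA in 23.3% and CAGGTG in 17.2%. The octamer and TATAAA, in 1.6% and 12.4% of windows, had no match in these 3. A match describes letters, not binding.

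Total counts ran from 13061703 to 16334932 per library. In the comparison of fucoidan with saline, which asks how the supplement changes the blood immune transcriptome, edgeR's quasi-likelihood test called 13.8% of genes at an adjusted p under 0.05, 4.65% as lower and 9.11% as higher. Of the called genes 66.2% were higher, and 55.7% with upper-quartile scaling. The lower calls, 684 genes, numbered 182 without fucoidan replicate 3, where 80.4% of calls were higher. They numbered 447 and 325 without saline replicates 3 and 4, 365 and 315 without fucoidan replicates 1 and 2, 439 with the replicate block and 1050 with limma-voom. Levels are given as CPM, the count relative to a library's total after TMM scaling, and fold changes as fucoidan over saline. Each title calls its library a biological replicate.

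Of the 5 genes, 3 fell, namely Cd79a, Cd79b and Cr2, and 0 rose in edgeR, DESeq2 or limma-voom without a replicate block. Over all genes tested, edgeR called 4.65% lower and 9.11% higher. Cd81 had an unadjusted p of 0.0237 in edgeR, and it was called higher once libraries were blocked by replicate number. The median log2 change of the 5 was -0.54, against -0.04 over all genes tested. The same 3 genes had no overlap between the groups, in the lower direction, which held for 11.0% of all genes. Ms4a1 and Cd81 were not called. In bulk RNA, fewer B cells and less of a transcript per B cell cannot be told apart.

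**Figure D1:**
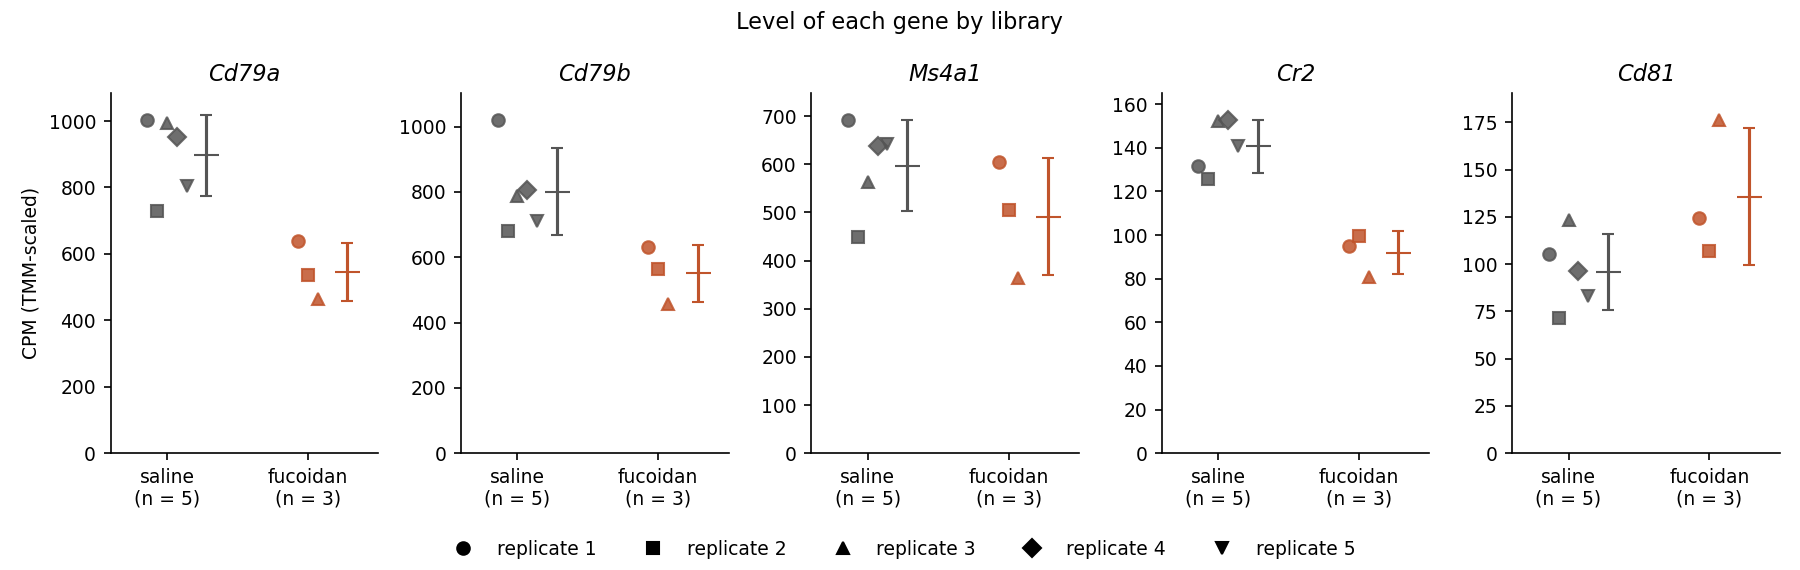
TMM-scaled CPM of each gene in the 5 saline and 3 fucoidan libraries, with marker shape for the replicate number and bars for mean ± SD. All fucoidan libraries lie below all saline libraries for Cd79a, Cd79b and Cr2, while the groups overlap for Ms4a1 and Cd81.

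Cd79a, the Ig-alpha chain, stood at 1003, 730, 993, 952 and 806 CPM in saline replicates 1 to 5 and at 638, 536 and 465 CPM in fucoidan replicates 1 to 3. The highest fucoidan library was thus below the lowest saline library, replicate 2. The saline mean of 897 ± 122 CPM (SD, n = 5) stood against 546 ± 86.9 CPM after fucoidan (SD, n = 3). Cd79a thus fell to 0.610 of its saline level (log2 -0.71, SE 0.151, edgeR adjusted p = 0.0105). Counts of 4228 to 17723 lie behind these values. The adjusted p was 0.0490 without fucoidan replicate 3, the highest on leaving out any single library.

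Cd79b, the Ig-beta chain, stood at 1020, 681, 788, 807 and 710 CPM after saline and at 630, 564 and 457 CPM after fucoidan. Saline replicate 1 was the highest by a wide margin, and the gap between the groups was narrower than for Cd79a. Means were 801 ± 133 CPM (SD, n = 5) with saline and 550 ± 87.1 CPM with fucoidan (SD, n = 3), a ratio of 0.687 (log2 -0.54, SE 0.158, edgeR adjusted p = 0.0439). This call rests on most of the libraries. It ended without saline replicate 3, 4 or 5 (adjusted p = 0.0785, 0.0936 and 0.0547) and without fucoidan replicate 1, 2 or 3 (0.0519, 0.107 and 0.176).

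Within a library the chains can be compared without any scaling. The count ratio of Cd79a to Cd79b was 0.983, 1.07, 1.26, 1.18 and 1.14 after saline and 1.01, 0.950 and 1.02 after fucoidan. Saline replicate 1 lay among the fucoidan libraries. The mean log2 ratio was 0.166 ± 0.136 (SD, n = 5) and -0.0102 ± 0.0553 (SD, n = 3), a difference of -0.18 (exact two-sided permutation over libraries, p = 0.107 and 0.241 after adjusting for the 9 ratios tested). Per kilobase of the gene length given by the authors, Cd79a and Cd79b were the most abundant of the 5, at 615 ± 83.8 and 560 ± 92.9 CPM per kb (SD, n = 5) after saline, with overlapping ranges. After fucoidan they stood at 375 ± 59.7 and 385 ± 60.9 CPM per kb (SD, n = 3).

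Ms4a1, which encodes CD20, did not pass the test. It stood at 692, 449, 563, 638 and 642 CPM after saline and at 605, 504 and 364 CPM after fucoidan. Fucoidan replicate 3 was the lowest of all libraries, but the other two lay within the saline range. The log2 change was -0.28 (SE 0.181, edgeR adjusted p = 0.347), and 2 SE on either side reach from -0.64 to 0.08, which includes the change of Cd79b. Without fucoidan replicate 3 the log2 change was -0.096.

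Relative to the Cd79 chains, Ms4a1 was higher in most fucoidan libraries than after saline. Its count over the geometric mean of Cd79a and Cd79b was 0.684, 0.637, 0.637, 0.728 and 0.848 after saline and 0.954, 0.917 and 0.789 after fucoidan. Fucoidan replicate 3 lay below saline replicate 5, so the groups overlapped. The mean log2 ratio differed by 0.33 (same exact permutation, p = 0.0714, adjusted 0.214), where the smallest p the design allows is 0.0357. Per kilobase Ms4a1 was well below the Cd79 pair, at 96.5 ± 15.3 CPM per kb (SD, n = 5) after saline and 79.4 ± 19.6 CPM per kb (SD, n = 3) after fucoidan, without overlap with either chain.

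Cr2, the complement receptor arm of the coreceptor, had the smallest p of the 5 genes. It stood at 132, 126, 152, 153 and 141 CPM after saline and at 95.0, 99.6 and 80.8 CPM after fucoidan. Every fucoidan library was below every saline library, with the least spread within the groups among the 5 genes. Means were 141 ± 12.2 CPM (SD, n = 5) with saline and 91.8 ± 9.84 CPM with fucoidan (SD, n = 3), a ratio of 0.654 (log2 -0.61, SE 0.111, edgeR adjusted p = 0.00545). The call held on leaving out any single library, with adjusted p up to 0.0312.

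The log2 change of Cr2 lay between those of Cd79b and Cd79a. Its count over the Cd79 pair was 0.130, 0.178, 0.172, 0.174 and 0.186 after saline and 0.150, 0.181 and 0.175 after fucoidan. Apart from saline replicate 1, where Cd79b was high, all saline libraries lay close to fucoidan replicates 2 and 3. The mean log2 ratios were -2.58 ± 0.205 (SD, n = 5) and -2.57 ± 0.146 (SD, n = 3), a difference of 0.01 (exact permutation p = 0.964, adjusted 0.964). Per kilobase Cr2 was the least abundant of the 5, at 17.3 ± 1.49 CPM per kb (SD, n = 5) after saline and 11.3 ± 1.21 CPM per kb (SD, n = 3) after fucoidan.

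Cd81, the tetraspanin of the coreceptor, did not fall with its partner. It stood at 106, 71.4, 123, 96.2 and 83.0 CPM after saline and at 124, 107 and 176 CPM after fucoidan. Fucoidan replicate 3 was the highest library, fucoidan replicate 1 was barely above saline replicate 3, and fucoidan replicate 2 lay within the saline range. The mean was 95.9 ± 20.0 CPM (SD, n = 5) after saline and 136 ± 36.1 CPM (SD, n = 3) after fucoidan. The log2 change of 0.50 (SE 0.191) did not pass edgeR's test (adjusted p = 0.112).

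Pairing the libraries by replicate number changed this call. With the replicate number as a block, Cd81 was called higher (log2 0.44, SE 0.119, edgeR adjusted p = 0.0394). The labels do not state this pairing, and not every saline library has a partner. In each of the pairs 1, 2 and 3 the fucoidan library was above its saline partner, but this does not depend on the pairing by number. Fucoidan replicates 1 and 3 were above every saline library, and fucoidan replicate 2 was above all but saline replicate 3. Any pairing that keeps those last libraries apart would give the same. Without fucoidan replicate 3, and with no block, the log2 change was 0.28 (adjusted p = 0.453). Per kilobase Cd81 stood between Ms4a1 and Cr2, at 33.3 ± 6.96 CPM per kb (SD, n = 5) after saline and 47.2 ± 12.5 CPM per kb (SD, n = 3) after fucoidan. In the fucoidan group its highest library, at 61.2, was above the lowest of Ms4a1, at 58.8, both from replicate 3.

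The ratio of Cd81 to the Cd79 pair separated the groups. It was 0.104, 0.101, 0.139, 0.110 and 0.110 after saline and 0.196, 0.194 and 0.382 after fucoidan. Each fucoidan library was above each saline library, and replicate 3 was the highest in the fucoidan group, as in the saline group. Both Cd79 genes had themselves fallen without overlap (log2 -0.71 and -0.54), so a gene that merely did not fall would tend to separate as well. The level of Cd81 alone changed by 0.50, with overlap between the groups. The mean log2 ratio was -3.16 ± 0.182 (SD, n = 5) and -2.03 ± 0.559 (SD, n = 3), a 2.18-fold difference, with 3 of 3 fucoidan libraries higher. The exact permutation gave its minimum for 56 arrangements, p = 0.0357, and the adjusted value was 0.161. It could not have passed unless most of the 9 ratios tested had also reached that minimum, so the adjusted value cannot decide. Without fucoidan replicate 3 the difference was 0.80 on the log2 scale, against 1.12 with it.

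**Figure D2:**
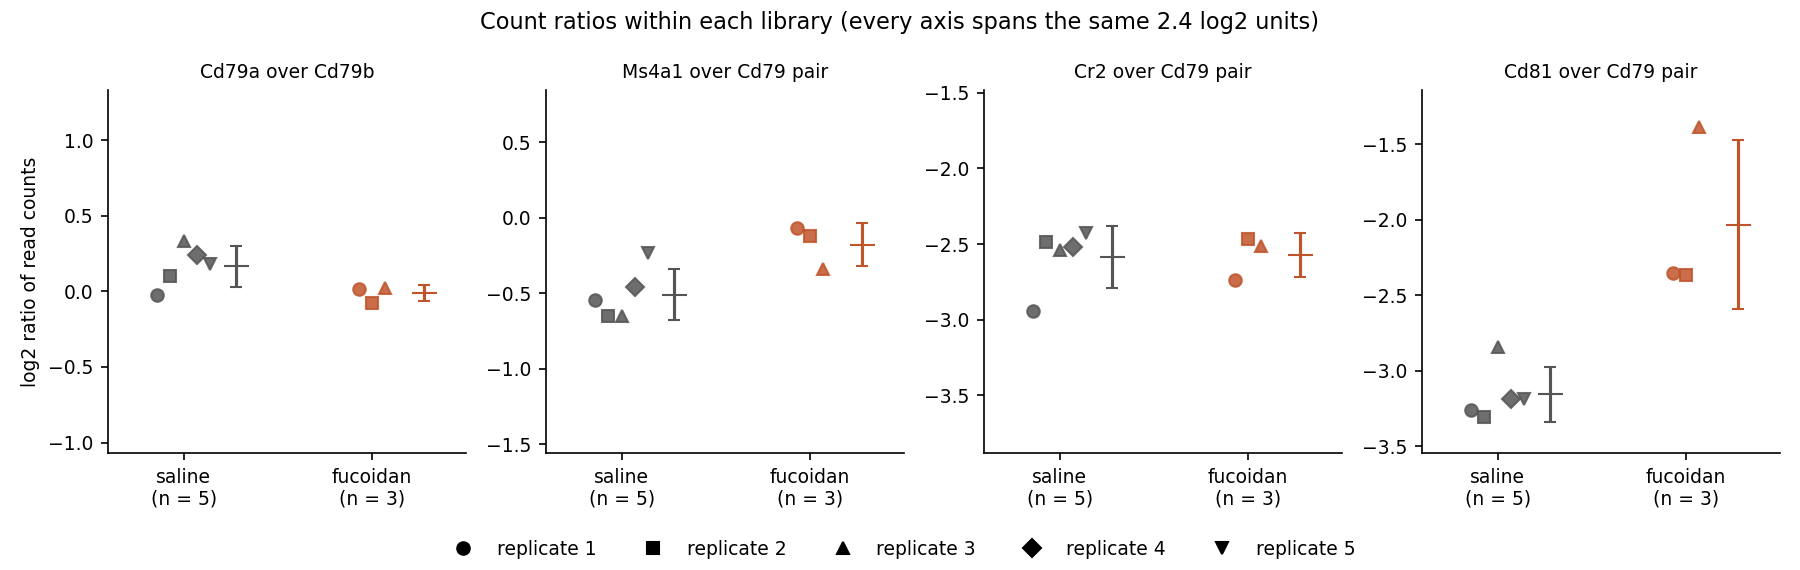
Log2 ratios of read counts within each library, with each vertical axis spanning the same range, marker shape for the replicate number and bars for mean ± SD. Cr2 over the Cd79 pair has like means in both groups (-2.58 and -2.57), whereas Cd81 over the pair lies higher in all 3 fucoidan libraries.

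Other B cell genes were used as a yardstick. Of 15 B cell reference genes, 10 fell and the other genes did not pass the test. Beside this count and those of the lists below stand the edgeR shares over all genes tested, 4.65% lower and 9.11% higher. The median of the 15 stood at -0.62 (log2), but the list did not fall as 1. Its changes ran from -0.89 for Bank1 to 0.004 for Cd72. Spib and Vpreb3 were also flat, at 0.002 each, and these 2 and Cd72 are named after their values were seen. Ralgps2, a Ral exchange factor, had 307 ± 41.0 CPM in saline libraries (SD, n = 5) and 168 ± 11.1 CPM in fucoidan libraries (SD, n = 3). The inhibitory receptor gene Cd22 had means of 544 and 297 CPM, and the adaptor gene Bank1 of 352 and 189 CPM. The number that fell was 6 without saline replicate 3 or 4, and 3 without fucoidan replicate 3. The summed level of the list was 4246 to 5259 CPM after saline and 2528 to 3566 CPM after fucoidan, and no member was at 0 in all libraries.

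Over the summed counts of that list, the groups overlapped for 4 of the 5 genes. The mean log2 ratio differed by -0.14 for Cd79a, 0.04 for Cd79b, 0.28 for Ms4a1 and -0.04 for Cr2 (exact permutation p = 0.286, 0.786, 0.143 and 0.571, adjusted 0.429, 0.884, 0.257 and 0.735). The difference for Cd79a was -0.08 without saline replicate 1 and without fucoidan replicate 2. In the saline libraries the ratio of Cr2 to the list was between 0.0290 and 0.0314. Cd81 over the list was 1.07 higher on the log2 scale, without overlap (exact permutation p = 0.0357, adjusted 0.161). That p is again the minimum, which could not pass after adjusting unless most of the ratios reached it. The summed level of the list was itself lower in every fucoidan library than in any saline library.

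Genes around the receptor moved unevenly. Among 23 kinase and adaptor genes that act next to the receptor, 6 were lower and 1 was higher, and the median was -0.14 (log2). Rasgrp3, a Ras exchange factor, Bank1 and the B cell Src-family kinase gene Blk had log2 changes of -0.76, -0.89 and -0.68 (edgeR adjusted p = 0.00396, 0.00406 and 0.00958). The riser was Fyn, a Src-family kinase gene that T cells and natural killer cells also use, at 0.62 (adjusted p = 0.0211), named here after its value was seen. Only 3 were lower under the replicate block and in fits that dropped saline replicate 3, saline replicate 4 or fucoidan replicate 2. Dropping fucoidan replicate 3 gave 2, with Blk at an adjusted p of 0.0504. Fyn did not pass once saline replicate 4 or fucoidan replicate 3 was dropped (adjusted p = 0.0599 and 0.109), and 2 genes were higher on dropping saline replicate 1 or 2 and in DESeq2 and limma-voom.

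Of 15 genes in a list named for inhibitory receptors and phosphatases 4 fell. The name is loose, as not every gene in the list encodes one of these. The receptor genes Cd72, Fcgr2b, Siglecg and Pirb of the same list were not called. The median was -0.05 and ran from -0.0057 without fucoidan replicate 3 to -0.10 with upper-quartile scaling, with -0.098, -0.089 and -0.078 on dropping fucoidan replicate 1, fucoidan replicate 2 and saline replicate 3. Cd22, Fcrl1 and Fcrla, the last 2 of the Fc receptor-like family, had log2 changes of -0.87, -0.54 and -0.71. The number of falls was 2 on dropping saline replicate 3, saline replicate 4 or fucoidan replicate 2, and 1 on dropping fucoidan replicate 3. Fcrl1 and Fcrla did not pass without fucoidan replicate 3 (edgeR adjusted p = 0.0550 and 0.107), and Fcrla did not pass on dropping saline replicate 3, saline replicate 4 or fucoidan replicate 2 either (0.0507, 0.0591 and 0.0607). A single gene of the list rose with RLE scaling, with erythroid and platelet genes left out, with no filter, with at least 10 counts in every library, with DESeq2 and on dropping saline replicate 3, and 2 rose with limma-voom.

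Constant genes of the immunoglobulin chains were also lower in part. Of 11 immunoglobulin constant genes tested 3 fell, and the median was -0.54, or -0.34 without fucoidan replicate 3. Ighd, the IgD heavy chain of naive follicular B cells, had 1095 ± 209 CPM in saline libraries (SD, n = 5) and 527 ± 54.8 CPM in fucoidan libraries (SD, n = 3), or -1.06 on the log2 scale (edgeR adjusted p = 0.00396). Iglc2, a lambda light chain gene, and Ighg3, the IgG3 heavy chain, had -0.57 and -0.67. Ighg3 was scarce, at means of 7.17 CPM in saline and 4.53 CPM in fucoidan libraries. The far more abundant Ighm and Igkc, named outside the rule, had -0.40 and -0.49 and were not called (edgeR adjusted p = 0.105 and 0.0631). Both passed with DESeq2. Iglc2 did not pass without fucoidan replicate 2 or 3 (adjusted p = 0.0618 and 0.0946). Ighg3 did not pass with no filter, with the replicate block, without saline replicate 3 or without any one fucoidan library (0.0503 to 0.102). The number of falls was 5 without saline replicate 2, with upper-quartile scaling or with limma-voom, 6 with DESeq2 and 1 without fucoidan replicate 3. Reads of similar constant genes cannot all be kept apart.

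Genes of follicular B cells, the naive recirculating subset, were lower in 5 of 7 cases, and the median was -0.86. Besides Ighd they included Fcer2a, the low-affinity IgE receptor, at -1.15 and Cd55, which restrains complement on the cell's own surface, at -1.08 (edgeR adjusted p = 0.00396 for each). On leaving out single libraries no count moved by more than 1.5 times.

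**Figure D3:**
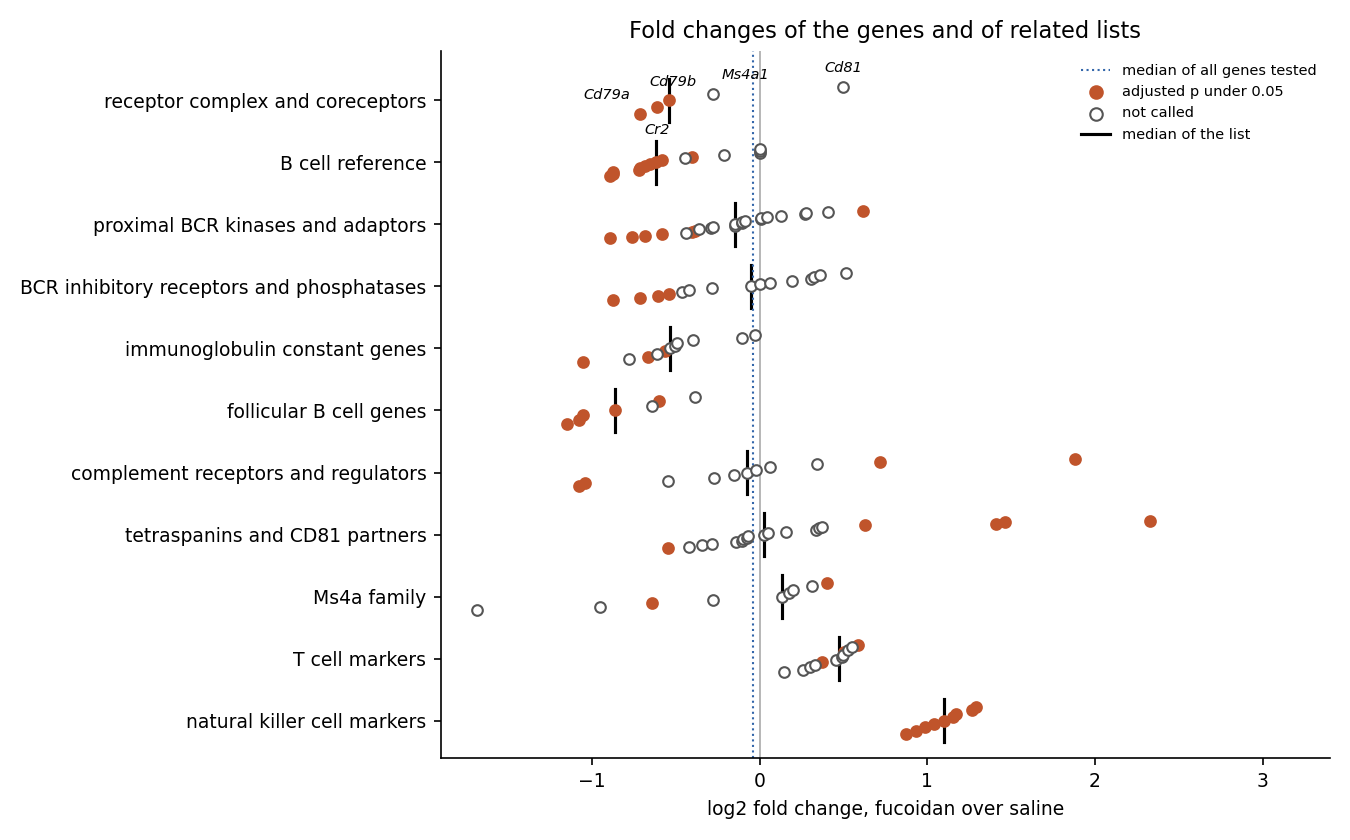
Log2 fold change of each gene (points) in the receptor complex with its coreceptors and in related lists, filled where the adjusted p was under 0.05, with black bars for list medians and a dotted line for the median of all genes tested (-0.04). The lists share some genes, such as Cd22, Bank1 and Ighd, and Cd81 lies apart from the other 4 genes in the top row.

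Cd81 was set beside its own family. Among 19 genes of tetraspanins and CD81 partner proteins, 4 were higher and 1 was lower. Their median of 0.03 (log2) turned to -0.02 with upper-quartile scaling and to -0.06 with the replicate block, and also turned negative on dropping saline replicate 2 or 5 or fucoidan replicate 1 or 3. Tspan33, a tetraspanin of red cell precursors, had 33.4 ± 18.1 CPM in saline libraries (SD, n = 5) and 168 ± 85.2 CPM in fucoidan libraries (SD, n = 3). Cd9, abundant in platelets, had 531 ± 141 and 1465 ± 492 CPM, and Cd151, a partner of integrins, 65.6 ± 17.2 and 174 ± 63.7 CPM. The fall was that of Cd37, a tetraspanin enriched in B cells, with a log2 change of -0.55 (edgeR adjusted p = 0.0128, and 0.0588 without fucoidan replicate 3), chosen after its value was seen. Upper-quartile scaling, no filter, limma-voom or leaving out saline replicate 2 gave 2 lower genes.

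Cr2 was set beside other receptors and regulators of complement, of which 2 rose and 2 fell among 11 tested. Their median was -0.08. Cd55 fell, and Itgax, an integrin chain of complement receptor 4, and Cd59a, an inhibitor of the membrane attack complex, rose by log2 0.72 and 1.88. Just 1 gene was lower on dropping saline replicate 2, 3 or 4 or any one fucoidan library, and the median was -0.0089 without fucoidan replicate 2, 0.01 without saline replicate 1, -0.05 without saline replicate 5, -0.13 without saline replicate 3 and -0.12 without saline replicate 4. Cr1l, the related gene that encodes Crry and that lies outside the rule for naming genes, had a log2 change of -0.02 (edgeR adjusted p = 0.934).

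Relatives of Ms4a1 showed no common direction. Of 9 other Ms4a genes tested 1 rose and 1 fell. Ms4a4b, a gene of T cells, and Ms4a4c had log2 changes of 0.40 and -0.64 (edgeR adjusted p = 0.0341 and 0.0406). Neither passed without saline replicate 4 or fucoidan replicate 1 or 3, Ms4a4b also not without saline replicate 3 or 5 or with the replicate block, and Ms4a4c not without fucoidan replicate 2. On dropping saline replicate 1, 2 genes of the family were higher, and 2 were lower with the replicate block, with no filter or with DESeq2. The median of 0.13 turned negative without fucoidan replicate 1, 2 or 3 (-0.22, -0.04 and -0.07) and with no filter on low counts (-0.29).

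The haemoglobin share of counts and markers of other cells moved with these genes. Haemoglobin took 5.59, 4.55, 8.48, 4.89 and 3.51% of counts in saline replicates 1 to 5 and 14.2, 13.5 and 24.1% in fucoidan replicates 1 to 3. The library with the highest share, fucoidan replicate 3, had the lowest Cd79a, Cd79b, Ms4a1 and Cr2 and the highest Cd81. Within the saline group the highest share, in replicate 3, also came with the highest Cd81, but not with a low Cd79a. Scaling without erythroid and platelet genes left Cd79a at -0.71, Cd79b at -0.54, Cr2 at -0.61 and Cd81 at 0.50. That step only takes the marker genes out before scaling, so it cannot show the part of red cell content in these results, which was not tested.

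**Figure D4:**
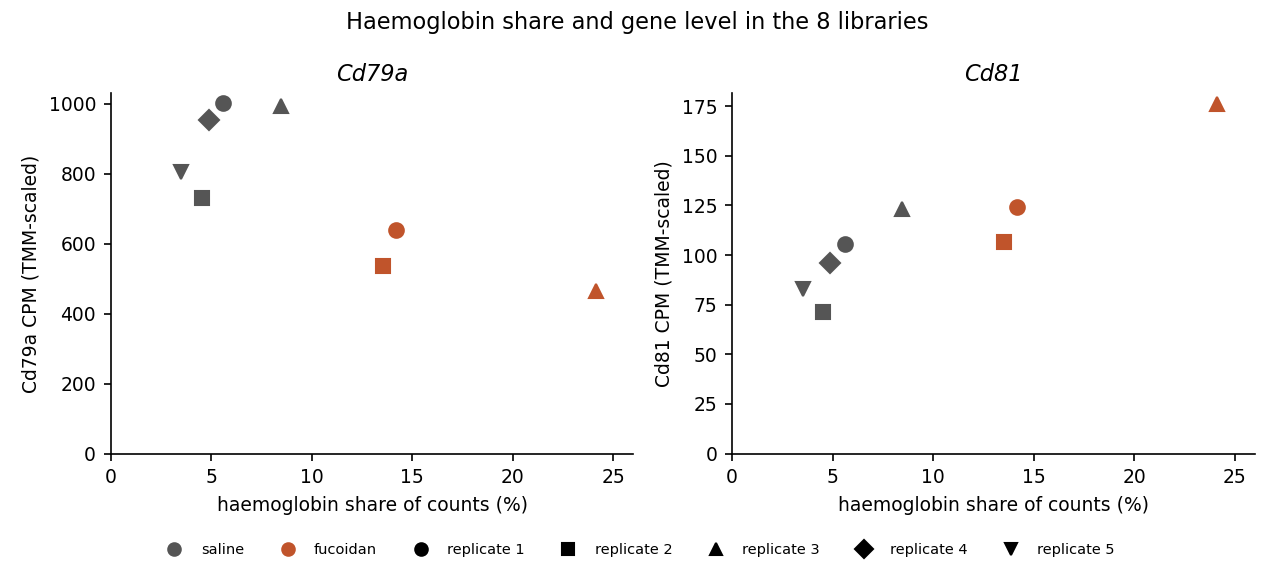
TMM-scaled CPM of Cd79a and Cd81 against the share of all counts from haemoglobin genes, 1 point per library, with colour for group and shape for replicate number. Fucoidan replicate 3, at 24.1%, has the lowest Cd79a and the highest Cd81.

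T cells and natural killer cells also make Cd81. All 9 natural killer markers rose, and their summed level was 274 to 392 CPM after saline and 642 to 915 CPM after fucoidan. Among 12 T cell markers 3 rose, with summed levels of 1105 to 1329 and 1464 to 1890 CPM. Over the alternatives run, 1 to 7 of them rose, with 1 under the replicate block, upper-quartile scaling or the loss of saline replicate 3 or 4 or fucoidan replicate 1 or 3, and 6 on dropping saline replicate 2. Platelet markers, of which 13 of 13 tested rose, summed to 2863 to 5963 and 8533 to 18065 CPM, and erythroid markers, of which 14 of 14 tested rose, to 33117 to 91572 and 161150 to 384620 CPM. With no filter on low counts, 8 platelet and 9 erythroid markers rose. Monocyte markers summed to 3648 to 6616 and 3337 to 4281 CPM. No marker of these lists was at 0 in all libraries, and their part in the result for Cd81 was not tested.

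Profiles most like those of the 5 genes were sought among 8401 protein-coding genes, by the root mean square difference of centred log2 CPM over the 8 libraries. Nearest to Cd79a were Cd74, the invariant chain of MHC class II, Fcmr, the IgM Fc receptor, and H2-DMb2, a class II chaperone, at 0.046, 0.067 and 0.070. Close to Cd79b were Unc93b1, a chaperone of endosomal Toll-like receptors, and Dusp22, at 0.059 and 0.071. Nearest to Cr2 were Sh3bp5, whose protein binds the kinase BTK, Acox3 and Ganc, at 0.059, 0.061 and 0.063. These distances are descriptions and carry no test.

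Ms4a1 and Cd81 had no neighbour as close. Papolg, Samd9l and Cyb561a3 were nearest to Ms4a1, at 0.093, 0.10 and 0.10, and Tprgl, Erlec1 and Prkaca were nearest to Cd81, at 0.092, 0.094 and 0.10. Among themselves, Cd79a and Cd79b differed by 0.13, Cd79a and Cr2 by 0.15, Cd79b and Ms4a1 by 0.19, and Cd79a and Ms4a1 by 0.25. Cd81 differed from Cr2, its partner at the cell surface, by 0.62 and from the other 3 genes by 0.55 to 0.65.

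**Figure D5:**
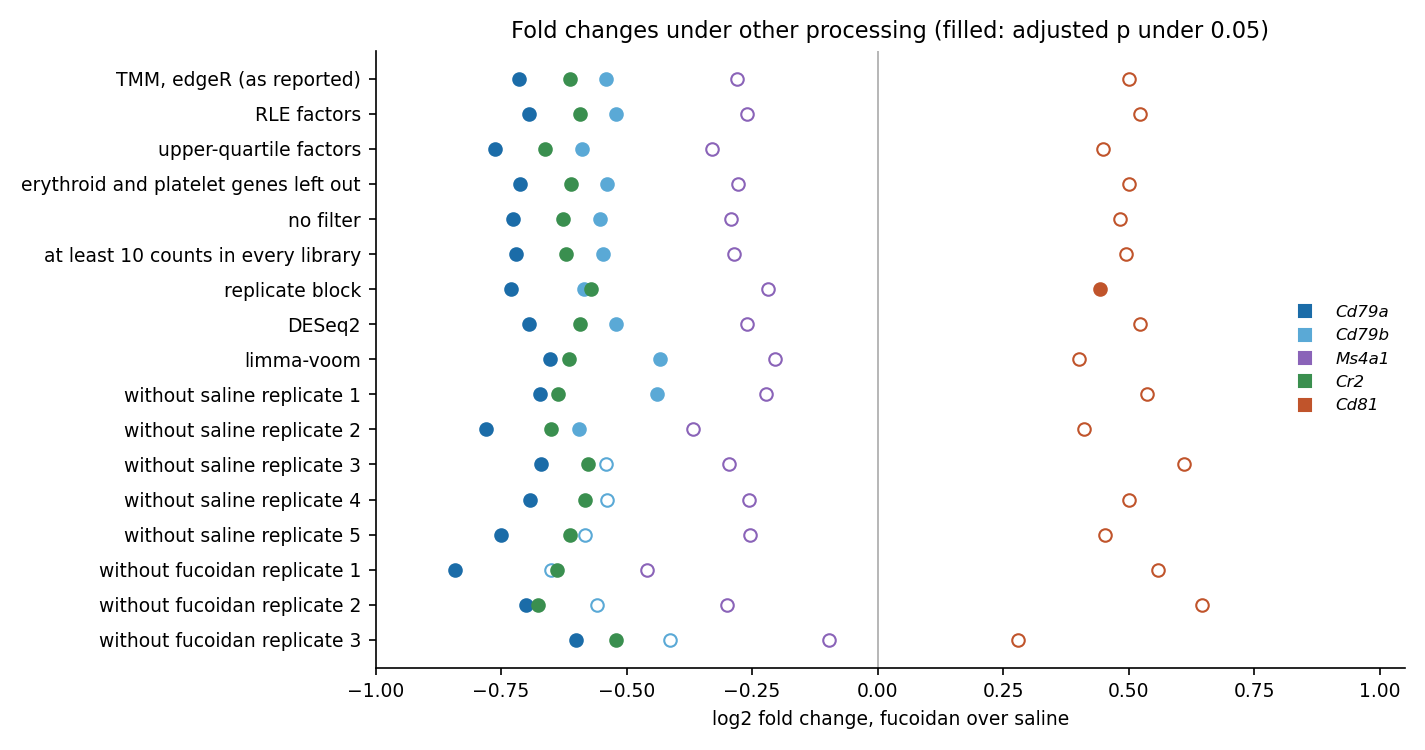
Log2 fold change of each gene under the processing as reported and under each alternative, filled where the adjusted p was under 0.05. Cd79a and Cr2 stay called throughout, Ms4a1 is never called, Cd79b loses its call in 6 leave-one-out fits and Cd81 gains one with the replicate block.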

How the data were processed

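Poly(A) RNA was sequenced as read pairs. The authors deposited raw whole-number counts per gene with gene lengths in bases (another column of the deposited table, with no stated method). Per the submitters' processing notes, cutadapt 4.0, Trimmomatic 0.39 and HISAT2 2.2.1 were used, with GRCm39 (mm39) as build. No source used here gives the counting program, its annotation or a strand setting, so reads of antisense genes cannot be told apart.

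The members and lists were chosen with earlier results of these data known. Genes were filtered with filterByExpr, scaled by TMM and tested with edgeR 4.0.16 (R 4.3.3; quasi-likelihood, robust; Benjamini-Hochberg over 14723 genes; threshold 0.05). The SE is the absolute log2 fold change over the square root of F. Count ratios were tested by exact two-sided permutation over 56 arrangements (scipy 1.17.1), adjusted over 9 ratios. Alternatives used DESeq2 1.42.0, limma 3.58.1, other scalings and filters, a replicate block and leaving out each library. The edgeR step was tested on simulated data for fucoidan against saline with 14514 genes. It called 22.2% of 81 genes changed 1.5-fold, 62.5% of 56 genes changed 2-fold and 90.5% of 63 genes changed 4-fold. Of its 117 calls, 5.98% were false. A share of called genes as large as the 13.8% of the real comparison was not tested, so these rates hold only for the numbers given.

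Whether replicate numbers pair libraries was checked on log2 CPM with group means removed. Like-numbered libraries correlated at 0.202, 0.261 and 0.223, all above 0.1. Unlike-numbered libraries ran from -0.291 to 0.204, and saline replicate 5 exceeded 0.1 with fucoidan replicates 1 and 2 (0.135 and 0.204). The blocked value is given where it changes a call. This pairing comes from expression alone, and the labels do not state it. Saline replicates 4 and 5 have no partner. Named were the 5 genes, up to 3 called genes (or 2 uncalled) with the smallest p per described list, and the 3 nearest profiles per gene with a mean of at least 10 CPM, of which 1 is not reported here. All labels give 1 batch date. P-values measure the spread between these libraries.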

Additional observations from a re-analysis of the deposited data

Results flagged for a closer look

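In the saline group, 3 of 14 values tested had a library far from the others, where chance flags about 1 in 20 separate values. The 14 values are levels and ratios of the same genes, so they are not separate and the 2 rates cannot be compared. Saline replicate 1 had the lowest log2 ratio of Cr2 to the Cd79 pair, at -2.94 against -2.54 to -2.43 in the other saline libraries. The same library had the highest log2 ratio of Cd79b to the B cell reference list, at -2.11 against -2.70 to -2.64. Saline replicate 3 had the highest log2 ratio of Cd81 to the Cd79 pair, at -2.84 against -3.30 to -3.19, and the highest haemoglobin share of its group, at 8.48%.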

How the results depend on the processing

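The number of genes called was 2025, and 928 to 2224 on leaving out 1 library, with 1291 without saline replicate 4 and 928 without fucoidan replicate 3. It was 1561 with the replicate block, 1987 with RLE and 2230 with upper-quartile factors, 2533 with DESeq2 and 2686 with limma-voom. Leave-one-out log2 changes were -0.84 to -0.60 for Cd79a, -0.65 to -0.41 for Cd79b, -0.46 to -0.096 for Ms4a1, -0.68 to -0.52 for Cr2 and 0.28 to 0.65 for Cd81. Of 80 recomputed values for the 5 genes, 73 kept their direction and their side of the threshold, 6 lost the call (all of Cd79b, on leaving out a library) and 1 gained it (Cd81 with the replicate block, 0.44). The cause of these changes was not tested. The block changed no other call among the 5 genes.

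Of 86 recomputed ratios, 7 changed sign, all near 0. None of the 86 passed the threshold, but the leave-one-out fits could not. Their smallest exact permutation p was 0.0571 without a saline library and 0.0952 without a fucoidan library, before adjusting. Cr2 over the Cd79 pair was -0.0785 without saline replicate 1, and -0.0427 and -0.0179 on dropping fucoidan replicate 2 and fucoidan replicate 3, in a leave-one-out range of -0.0785 to 0.0943. Cr2 over the B cell reference was 0.0278 without fucoidan replicate 1, in a range of -0.103 to 0.0278. Cd79b over the reference was -0.00209 without saline replicate 4, in a range of -0.00209 to 0.147, -0.0498 with the replicate block and -0.0229 with the geometric mean of the reference. With 3 pairs, the exact permutation test of a blocked ratio cannot go below p = 0.25. Depth does not limit these genes, which had at least 734 counts in every library, whereas the number of libraries limits the exact permutation tests of ratios to p = 0.0357 or more.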
